A study of Mus musculus with 4 samples.

Results

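The collagen genes, the 44 genes in the deposited tables whose symbol is Col, a number, the letter a and a number, were examined in RNA-seq of whole cochleae. They were chosen by symbol alone among 37239 gene identifiers, no pseudogene carried such a symbol, and all are annotated as protein coding. The cochleae came from mice at postnatal day 8 that were homozygous for cello, a mutant allele of the helios gene Ikzf2 (Ikzf2cello/cello), or were wild-type littermates (Ikzf2+/+), with 2 libraries per genotype. Cello is a missense allele, so the transcript level of Ikzf2 does not check the labels. Helios is a zinc finger transcription factor of outer hair cells, and the labels set mutant cochleae against wild-type ones to find transcripts that differ. Every cell of the cello mice carries the mutant allele. The labels call the libraries biological duplicates but do not say how many animals a library pooled, so p-values measure only the spread between these libraries, which may be partly technical.

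Collagens are extracellular proteins made of chains that wind around each other as trimers, and each collagen type is built from its own chain or set of chains. Fibrillar collagens form the cables of bone, cartilage and ligament, fibril-associated collagens decorate those cables, and type IV collagen forms the sheet of basement membranes. In the cochlea type II, IX and XI collagens are components of the tectorial membrane, the spiral ligament and the cartilage of the otic capsule, and type IV collagen underlies the epithelia and surrounds vessels and nerve fibres. Mutations of COL11A1, COL11A2, COL2A1, COL4A3, COL4A4 and COL4A5 are known causes of hearing loss in people.

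The cello libraries held 42450937 and 47463910 counted alignments and the wild-type libraries 49719984 and 42152616. Levels are in CPM, the count scaled to the total of its library, and 1 read came to 0.0201 to 0.0237 CPM. The libraries differed within genotypes. Markers of osteoblasts and bone, 11 genes in all, summed to 2657 and 1076 CPM in cello replicates 1 and 2. In wild-type replicates 1 and 2 they summed to 1338 and 1459.6 CPM. All 11 were higher in cello replicate 1 than in cello replicate 2, against 6551 of the 14721 genes tested. Markers of Schwann cells, 8 genes in all, summed to 3807 and 4650.4 CPM in cello and to 986 and 2552 CPM in wild-type. Thus cello replicate 1 was rich in bone transcripts and wild-type replicate 1 was poor in nerve transcripts. Many results that rest on either are given with and without it, but the sums of single classes are not. The 7 hair cell markers were present in every library, and the mutated gene Ikzf2 stood at 17.7 and 16.9 CPM in cello and at 22.9 and 18.5 CPM in wild-type (limma, adjusted p = 0.545). In whole tissue, fewer cells of a type and less RNA per cell cannot be told apart.

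Collagen transcripts were abundant, and no single collagen gene differed between genotypes at an adjusted p of 0.05 in limma. Summed over the 44 genes they reached 29283 and 22098 CPM in cello and 24032 and 24200.3 CPM in wild-type. The cello libraries were the highest and the lowest of the 4. This was 4.13% and 3.16% of the reads in genes in cello and 3.39% and 3.32% in wild-type. The sum averaged 25691 ± 5081 CPM in cello and 24116 ± 119 CPM in wild-type (SD, n = 2 each), a ratio of 1.07, and an exact two-sided permutation test gave p = 1.0, where 2 against 2 libraries cannot go below 0.333. Without cello replicate 1 the ratio was 0.916, so the direction of the sum rested on that library.

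A few chains made up most of the sum. The 12 genes with the highest mean CPM held 91.1% and 89.7% of collagen CPM in cello and 90.8% and 90.5% in wild-type. The 6 chains of types II, IX and XI alone held 69.99% and 69.2% in cello and 70.3% and 70.9% in wild-type. Fibrillar chains, 11 genes, held 62.2% to 63.3% of the sum in all 4 libraries and fibril-associated chains, 9 genes, held 28.4% to 29.1%. The division of collagen reads between these classes thus varied little, although the total varied.

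**Figure D1:**
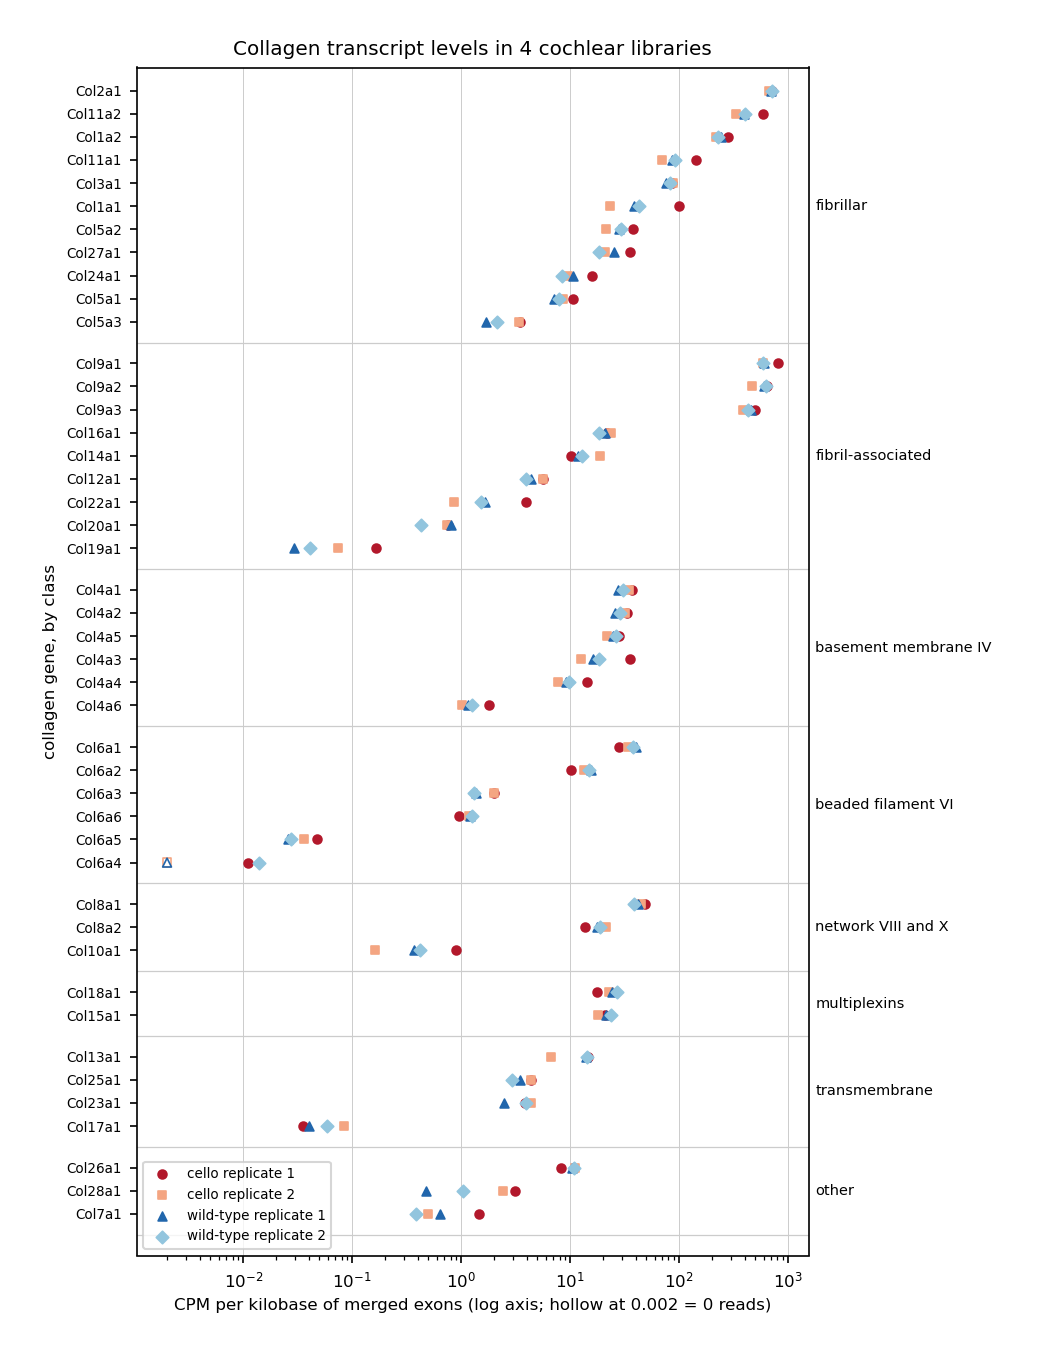
CPM per kilobase of merged exons (log axis) for each of the 44 collagen genes in cello replicates 1 and 2 and wild-type replicates 1 and 2, ordered by class and by mean level. Each point is 1 library, hollow points placed at 0.002 mark 0 reads, and the means run from 700.1 CPM per kilobase for Col2a1 to 0.00624 for Col6a4.

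Of the cartilage-type chains, Col2a1 encodes the only chain of type II collagen, the main fibril of cartilage. Its level was 6599 and 6229.7 CPM in cello and 6425 and 6629 CPM in wild-type, so the genotypes overlapped. Per kilobase of exon it was the highest of all collagens, with a mean of 700.1 CPM per kilobase over the 4 libraries. The 95% interval of its log2 fold change, cello minus wild-type, ran from -0.80 to 0.75 in limma. On the log2 scale replicate 1 minus replicate 2 was only 0.083 in cello and -0.045 in wild-type. Limma draws the variance of a gene towards that of genes of similar level, so the interval is not the scatter of Col2a1 alone. Here and below, fold changes are differences of log2(CPM + 0.5), which understates the change of low genes.

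The type IX chains, which sit on the surface of type II fibrils, followed at 645 CPM per kilobase for Col9a1, 586 for Col9a2 and 442 for Col9a3. Col9a1 stood at 4099 and 2963 CPM in cello and at 3036 and 2974 CPM in wild-type. Col9a2 stood at 1992 and 1440.1 CPM in cello and at 1878 and 1943 CPM in wild-type. In both cases cello replicate 1 was the highest library and cello replicate 2 the lowest. Col9a3 stood at 1905 and 1489.7 CPM in cello and at 1762 and 1660.3 CPM in wild-type, again with the cello libraries on either side of the wild-type ones. Of the exon bases of Col9a3, 6.07% overlap exons of Tcfl5 on the opposite strand, and without a stated strand setting reads there cannot be assigned.

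The type XI chains, which set the width of type II fibrils, differed more between the cello libraries. Col11a2 stood at 4081 and 2282 CPM in cello and at 2691 and 2782 CPM in wild-type. Col11a1 stood at 1818 and 885 CPM in cello and at 1101 and 1162 CPM in wild-type. For both chains the wild-type libraries lay close together and between the cello libraries. The log2 fold change of Col11a1 was 0.16 with all libraries, -0.35 without cello replicate 1 and 0.68 without cello replicate 2.

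Type I collagen is the main fibril of bone and of most connective tissue and is normally built from a pair of Col1a1 chains and a single Col1a2 chain. Col1a2 stood at 3477 and 2690.1 CPM in cello and at 2994 and 2842 CPM in wild-type. Col1a1 stood at 659 and 154 CPM in cello and at 254 and 280.1 CPM in wild-type, with a cello library at each end of the range. Per kilobase of exon Col1a1 was below Col1a2 in every library, with ratios of 0.359 and 0.108 in cello and of 0.160 and 0.187 in wild-type. The ratio spanned 3.31-fold over the libraries, so the counts of these partner chains did not keep a fixed proportion. The longest coding transcripts of Col1a1 and Col1a2 have GC contents of 58.9% and 55.7%, beside 62.2% for Col2a1, and the part of sequence composition or of read assignment in the low Col1a1 counts was not tested.

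Other fibrillar chains accompany these in smaller amounts in most tissues. Col3a1, the chain of type III collagen in soft connective tissue and vessel walls, stood at 852 and 859 CPM in cello and at 744 and 803 CPM in wild-type. Col5a2, a chain of the type V collagen that starts type I fibrils, stood at 359.9 and 205 CPM in cello and at 270.2 and 279 CPM in wild-type. Col27a1, the chain of a cartilage collagen, stood at 466 and 274 CPM in cello and at 330.1 and 242 CPM in wild-type. Overlap between the genotypes was seen for Col5a2 and Col27a1 and not for Col3a1, whose log2 fold change was 0.15 (SE 0.12).

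Basement membrane collagen IV is assembled either from Col4a1 and Col4a2, which most basement membranes contain, or from Col4a3, Col4a4, Col4a5 and Col4a6 in restricted places. Col4a1 stood at 276 and 257 CPM in cello and at 204 and 228 CPM in wild-type. Col4a2 stood at 219 and 212 CPM in cello and at 171 and 191 CPM in wild-type. Col4a5 stood at 191 and 147 CPM in cello and at 168 and 179 CPM in wild-type. Col4a1 and Col4a2 were higher in both cello libraries than in both wild-type libraries, whereas for Col4a5 the cello libraries lay on either side of the wild-type ones.

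Col4a3 stood at 352 and 125 CPM in cello and at 163 and 183 CPM in wild-type. Col4a4 stood at 151 and 82.0 CPM in cello and at 97.6 and 104 CPM in wild-type. Col4a6 was the lowest of the 6 chains, at 14.3 and 8.15 CPM in cello and 9.25 and 10.01 CPM in wild-type. All 3 were highest in cello replicate 1 and lowest in cello replicate 2. Of the exon bases of Col4a3, 5.65% overlap exons of C430014B12Rik on the opposite strand.

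Of type VI collagen, which forms beaded filaments around cells, Col6a1 was the highest chain at 35.1 CPM per kilobase, followed by Col6a2 at 13.5 and Col6a3 at 1.68. Col6a6 averaged 1.15 CPM per kilobase, and Col6a5 and Col6a4 were too low to be tested. The type VIII chains, which form lattices under endothelia and in the cornea, were Col8a1 at 383 and 350.1 CPM in cello and 329 and 305 CPM in wild-type, and Col8a2 at 61.8 and 96.3 CPM in cello and 78.5 and 85.3 CPM in wild-type. Col10a1, the collagen of hypertrophic cartilage, was near the limit of the filter at 2.80 and 0.506 CPM in cello and 1.15 and 1.30 CPM in wild-type. Type X transcripts, at a mean of 0.460 CPM per kilobase, were thus rare beside the other cartilage collagens.

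Among the rest, the highest multiplexin, a basement membrane collagen with a cleavable end domain, was Col18a1 at 125 and 161 CPM in cello and 171 and 188 CPM in wild-type. Among the collagens anchored in the cell membrane the highest was Col13a1, at 67.3 and 30.6 CPM in cello and 64.0 and 66.3 CPM in wild-type. Only cello replicate 2 was low for Col13a1. Col26a1 led the collagens placed in no other class, at 67.6 and 90.4 CPM in cello and 85.7 and 88.3 CPM in wild-type.

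The cello libraries differed from each other in collagen content more than the wild-type libraries did. The gap between the libraries of a genotype was taken as the difference of their log2(CPM + 0.5), replicate 1 minus replicate 2, in the 40 genes tested, those that reached 1 CPM in 2 or more libraries. Of these 40 genes, 7 were at least 2-fold higher in cello replicate 1 than in cello replicate 2 (17.5%), against 1.52% of all 14721 genes that passed the same filter, and 0 were at least 2-fold lower, against 0.632% of all genes. Between the wild-type libraries 0 of the 40 differed 2-fold, against 1.86% of all genes either way, although Col28a1 came close with a gap of -0.9996. That count rests on the added 0.5, since in CPM the ratio of wild-type replicate 1 to replicate 2 was 0.451 for Col28a1, past 2-fold. Both wild-type libraries lay between the cello libraries for 18 of the 40 genes (45.0%), against 19.5% of all genes.

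The 7 genes 2-fold higher in cello replicate 1 included chains of bone, cartilage, tendon and basement membrane. Col1a1, with the values given above, was 4.28-fold higher in cello replicate 1. Col22a1, a collagen of tissue junctions such as that of muscle and tendon, stood at 36.2 and 7.84 CPM in cello and at 15.3 and 13.9 CPM in wild-type. Col7a1, the anchoring fibril of skin, stood at 14.9 and 5.10 CPM in cello and at 6.62 and 3.99 CPM in wild-type. Cello replicate 1 was the highest library for each of them. Col10a1, Col4a3, Col13a1 and Col11a1 were the other 4, with ratios of 5.54, 2.81, 2.20 and 2.05 between cello replicates 1 and 2.

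Col14a1, a fibril-associated collagen of tendon and skin, had the largest gap in the opposite direction. It stood at 71.4 and 132 CPM in cello and at 83.3 and 90.1 CPM in wild-type, so that cello replicate 2 was the highest library. By class, the median gap between cello replicates 1 and 2 was 0.73 on the log2 scale for the 11 fibrillar genes and 0.57 for the 6 type IV genes, against -0.031 for all genes tested. It was -0.27 for the 4 type VI genes tested. The gap was above 0 for 10 of the 11 fibrillar genes and for all 6 type IV genes, but its size differed between chains. It was small for Col2a1 (0.083), Col4a1 (0.10) and Col4a2 (0.052), and Col3a1 was just below 0 (-0.012). Of the type VI genes tested, 1 lay above 0 and 3 below.

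**Figure D2:**
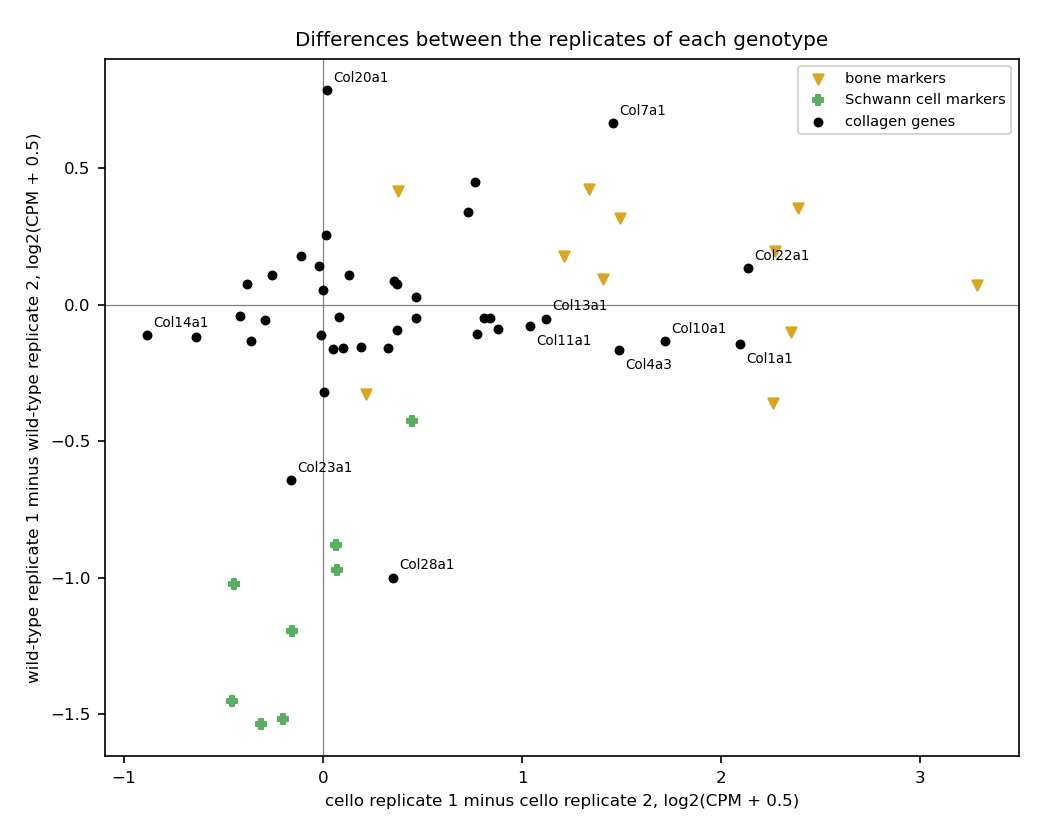
Difference of log2(CPM + 0.5) between cello replicates 1 and 2 (horizontal axis) and between wild-type replicates 1 and 2 (vertical axis), with 1 point per gene for the 40 tested collagen genes, 11 bone markers and 8 Schwann cell markers. The collagens spread along the horizontal axis, from 2.14 for Col22a1 to -0.89 for Col14a1, where all 11 bone markers lie above 0, and Col28a1 lies low on the vertical axis at -0.9996.

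Markers of bone, osteoclasts and vessels moved with these gaps between the cello libraries, and markers of fibrocytes and cartilage did so in part. Ibsp, a protein of mineralised bone, stood at 1044 and 204 CPM in cello and at 435 and 467 CPM in wild-type. Over the 11 bone markers the median gap between cello replicates 1 and 2 was 1.49 on the log2 scale, against -0.031 for all genes tested. Of the 11, 9 were more than 2-fold higher in cello replicate 1, against 1.52% of all genes. Bone transcripts were thus high in cello replicate 1, while cello replicate 2 was near the wild-type level or below it. Osteoclast markers, 6 genes, summed to 429.7 and 156 CPM in cello and to 179.6 and 175 CPM in wild-type. Endothelial and pericyte markers, 9 genes, summed to 819 and 538 CPM in cello and to 518 and 473 CPM in wild-type. All 9 were higher in cello replicate 1 than in cello replicate 2, against 6551 of the 14721 genes tested. Vessel genes therefore went with bone genes between these libraries. Fibrocyte markers, 6 genes, summed to 5474 and 3453 CPM in cello and to 4034 and 3400.4 CPM in wild-type. Their median gap between the cello libraries was 0.00098 on the log2 scale, with 3 genes above 0 and 3 below, so a few genes carried the sum. Cartilage markers, 9 genes, summed to 1177 and 948 CPM in cello and to 1107 and 1147 CPM in wild-type, and the median gap of the 8 tested was 0.0060, with 4 above 0 and 4 below. None of these marker genes was at 0 in any library, and their part in the collagen gaps was not tested.

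The wild-type libraries differed less than 2-fold on the log2(CPM + 0.5) scale for all 40 genes, and most of the largest gaps were in genes of low level. Col20a1 stood at 3.91 and 3.86 CPM in cello and at 4.16 and 2.21 CPM in wild-type. Col23a1, a membrane collagen, stood at 22.2 and 24.9 CPM in cello and at 14.3 and 22.6 CPM in wild-type. For both genes the wild-type gap was wider than the cello gap. Col28a1, Col7a1 and Col27a1 complete the 5 largest wild-type gaps, and Col27a1 is among the 12 collagens with the highest mean CPM. Of the 40 genes, 29 had a wider gap between the cello libraries than between the wild-type libraries (72.5%), against 60.3% of all genes. In 25 the cello gap was wider than the difference between the genotype means (62.5%), against 55.8% of all genes, so this was common in these libraries.

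Chains that assemble into the same trimer were compared as ratios of CPM per kilobase of exon within each library. The most constant pair was Col4a1 and Col4a2, with ratios of 1.12 and 1.08 in cello and of 1.06 and 1.06 in wild-type. Col6a1 and Col6a2 kept ratios of 2.76 and 2.53 in cello and of 2.61 and 2.55 in wild-type. Col11a1 and Col11a2 kept ratios of 0.240 and 0.209 in cello and of 0.221 and 0.225 in wild-type. These 3 pairs spanned at most 1.15-fold over the 4 libraries, although the level of Col11a1 itself differed 2.05-fold between the cello libraries.

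Other partners varied more. Col5a1 and Col5a2 had ratios of 0.286 and 0.399 in cello and of 0.254 and 0.274 in wild-type. Col4a3 and Col4a4 had ratios of 2.48 and 1.63 in cello and of 1.78 and 1.88 in wild-type. Col4a5 and Col4a6 had ratios of 15.8 and 21.4 in cello and of 21.5 and 21.2 in wild-type. Col8a1 and Col8a2, which can also form trimers of 1 chain alone, had ratios of 3.56 and 2.08 in cello and of 2.40 and 2.05 in wild-type. In each of the last 2 pairs cello replicate 1 was the library that stood apart. Col9a1 and Col9a2 had ratios of 1.26 and 1.26 in cello and of 0.987 and 0.935 in wild-type, and Col9a3 and Col9a2 ratios of 0.768 and 0.831 in cello and of 0.754 and 0.687 in wild-type. The type IX ratios were higher in both cello libraries than in both wild-type libraries, without a test, since the ratios were a description.

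Chains that share a fibril rather than a trimer also varied. Col2a1 and Col11a1, which share cartilage fibrils, had ratios of 5.005 and 9.71 in cello and of 8.04 and 7.86 in wild-type. Col3a1 and Col1a1, which share fibrils in soft tissue, had ratios of 0.865 and 3.73 in cello and of 1.96 and 1.92 in wild-type. The Col3a1 ratio spanned 4.31-fold over the libraries, the widest of the 13 pairs examined. Ratios between genes depend on the length used, and with the longest coding transcript in place of merged exons, an alternative chosen after the data were seen, the mean of the Col1a1 to Col1a2 ratio was 0.0969 in place of 0.203. In the same way the mean was 1.56 in place of 2.61 for Col6a1 to Col6a2 and 3.38 in place of 2.12 for Col3a1 to Col1a1, while the span of each pair over the libraries does not depend on length.

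**Figure D3:**
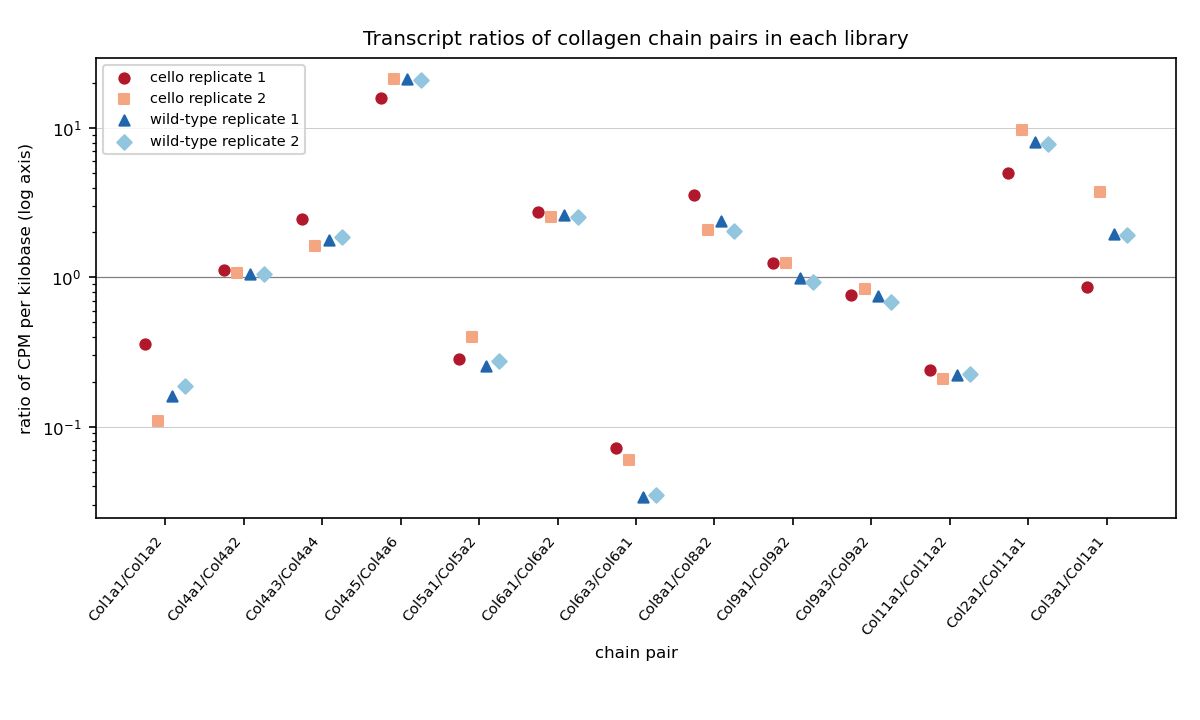
Ratio of CPM per kilobase of exon (log axis) of 13 pairs of collagen chains in cello replicates 1 and 2 and in wild-type replicates 1 and 2. Each point is 1 library, and the span over the libraries runs from 1.06-fold for Col4a1 and Col4a2 to 4.31-fold for Col3a1 and Col1a1.

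By their annotated positions the type IV genes lie head to head in pairs, Col4a1 with Col4a2, Col4a3 with Col4a4 and Col4a5 with Col4a6. The promoters of the pair with the most constant ratio and of Col4a5 and Col4a6 are shown to compare the arrangements. Sequences are from RefSeq on GRCm38.p6, 250 bases before to 50 after the gene start, on the gene's own strand. Capitals mark matches on either strand to TATAAA, a common core promoter motif, to CCAAT, an upstream promoter motif, or to GGGCGG, known as the GC box, and no match overlaps another in these windows.
Col4a1: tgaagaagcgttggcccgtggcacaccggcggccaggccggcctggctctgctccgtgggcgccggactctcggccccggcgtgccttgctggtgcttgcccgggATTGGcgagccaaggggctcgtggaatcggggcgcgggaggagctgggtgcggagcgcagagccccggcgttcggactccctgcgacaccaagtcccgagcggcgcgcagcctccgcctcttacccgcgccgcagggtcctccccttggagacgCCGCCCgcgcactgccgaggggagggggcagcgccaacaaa
Col4a2: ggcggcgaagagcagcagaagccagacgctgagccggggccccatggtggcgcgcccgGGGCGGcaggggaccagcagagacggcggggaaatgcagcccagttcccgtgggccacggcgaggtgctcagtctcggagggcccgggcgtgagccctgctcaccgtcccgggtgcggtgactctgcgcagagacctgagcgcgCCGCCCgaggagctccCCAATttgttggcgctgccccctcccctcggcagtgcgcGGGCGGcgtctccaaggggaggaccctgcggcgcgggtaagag
Col4a5: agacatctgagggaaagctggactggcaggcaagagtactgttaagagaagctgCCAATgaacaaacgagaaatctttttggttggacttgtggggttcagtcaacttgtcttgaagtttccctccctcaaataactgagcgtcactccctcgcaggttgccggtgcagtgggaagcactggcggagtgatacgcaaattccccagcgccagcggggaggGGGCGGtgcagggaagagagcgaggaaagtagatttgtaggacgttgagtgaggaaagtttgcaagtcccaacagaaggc
Col4a6: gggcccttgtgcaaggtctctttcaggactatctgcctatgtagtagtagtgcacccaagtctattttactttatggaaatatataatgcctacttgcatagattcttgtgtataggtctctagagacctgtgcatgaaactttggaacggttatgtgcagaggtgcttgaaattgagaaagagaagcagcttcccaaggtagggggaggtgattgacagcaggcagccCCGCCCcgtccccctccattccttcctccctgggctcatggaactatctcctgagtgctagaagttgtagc
The Col4a1 window is chr8:11312777-11313076 on the minus strand and the Col4a2 window chr8:11312555-11312854 on the plus strand, so the start sites are 21 bases apart and the windows share 78 bases, which read the same on the common strand. The Col4a5 window is chrX:141475169-141475468 on the plus strand and the Col4a6 window chrX:141474027-141474326 on the minus strand, with start sites 1343 bases apart and no shared bases. Col4a3 and Col4a4 are not shown. In the annotation Col4a3 begins at chr1:82586921 on the plus strand and Col4a4 at chr1:82586849 on the minus strand. Their starts also lie close together, while their ratio spanned 1.52-fold over the libraries, against 1.36-fold for Col4a5 and Col4a6. A link of start distance to the ratio was not tested. The type IV windows on chromosome 8 were rich in G and C, at 74.0% for Col4a1 and 73.7% for Col4a2, against 52.7% for Col4a5 and 48.3% for Col4a6.

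None of the 4 windows held TATAAA, which 13.6% of all 32851 RefSeq windows of this length held. CCAAT was found in the windows of Col4a1, Col4a2 and Col4a5, against 37.4% of all windows. GGGCGG was found in all 4, with 3 matches in Col4a2, against 35.7% of all windows. The only match in Col4a1 lies in the 78 bases shared with Col4a2 and is also 1 of the 3 matches there. For 35 of the 44 collagen genes a window was matched by symbol, 38 windows in all, of which 5 held TATAAA, 13 held CCAAT and 23 held GGGCGG. A match is a description of the letters and not of binding.

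Between genotypes, 0 of the 40 tested collagen genes passed an adjusted p of 0.05 in limma, against 0.0% of all 14721 genes tested, and 0 passed in edgeR, again against 0.0%. The lowest adjusted p of a collagen was 0.419 in limma. At an unadjusted p of 0.05 in limma 8 of 40 were higher in cello, against 4.42% of all genes, and 2 were lower, against 6.47% of all genes. At an unadjusted p of 0.05 in edgeR 9.94% of all genes passed in either direction. The collagens that passed were Col28a1, Col5a3, Col6a3, Col25a1, Col12a1, Col5a1, Col4a1 and Col4a2, higher in cello, and Col6a1, lower. DESeq2 called 4 collagens higher in cello, against 0.847% of the genes to which it gave an adjusted p, and 0 lower, against 0.589%.

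Direction was uneven but depended on cello replicate 1. Of the 40 genes 27 had a log2 fold change above 0 (67.5%), against 43.4% of all genes, and the median was 0.17, against -0.032 for all genes. Without cello replicate 1 the median of the collagens was -0.054, with 17 above 0, and without cello replicate 2 it was 0.33, with 32 above 0. Without wild-type replicate 1 it was 0.12 and without wild-type replicate 2 it was 0.17. In all, 14 genes changed sign without cello replicate 1, and 18 kept theirs whichever library was left out.

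**Figure D4:**
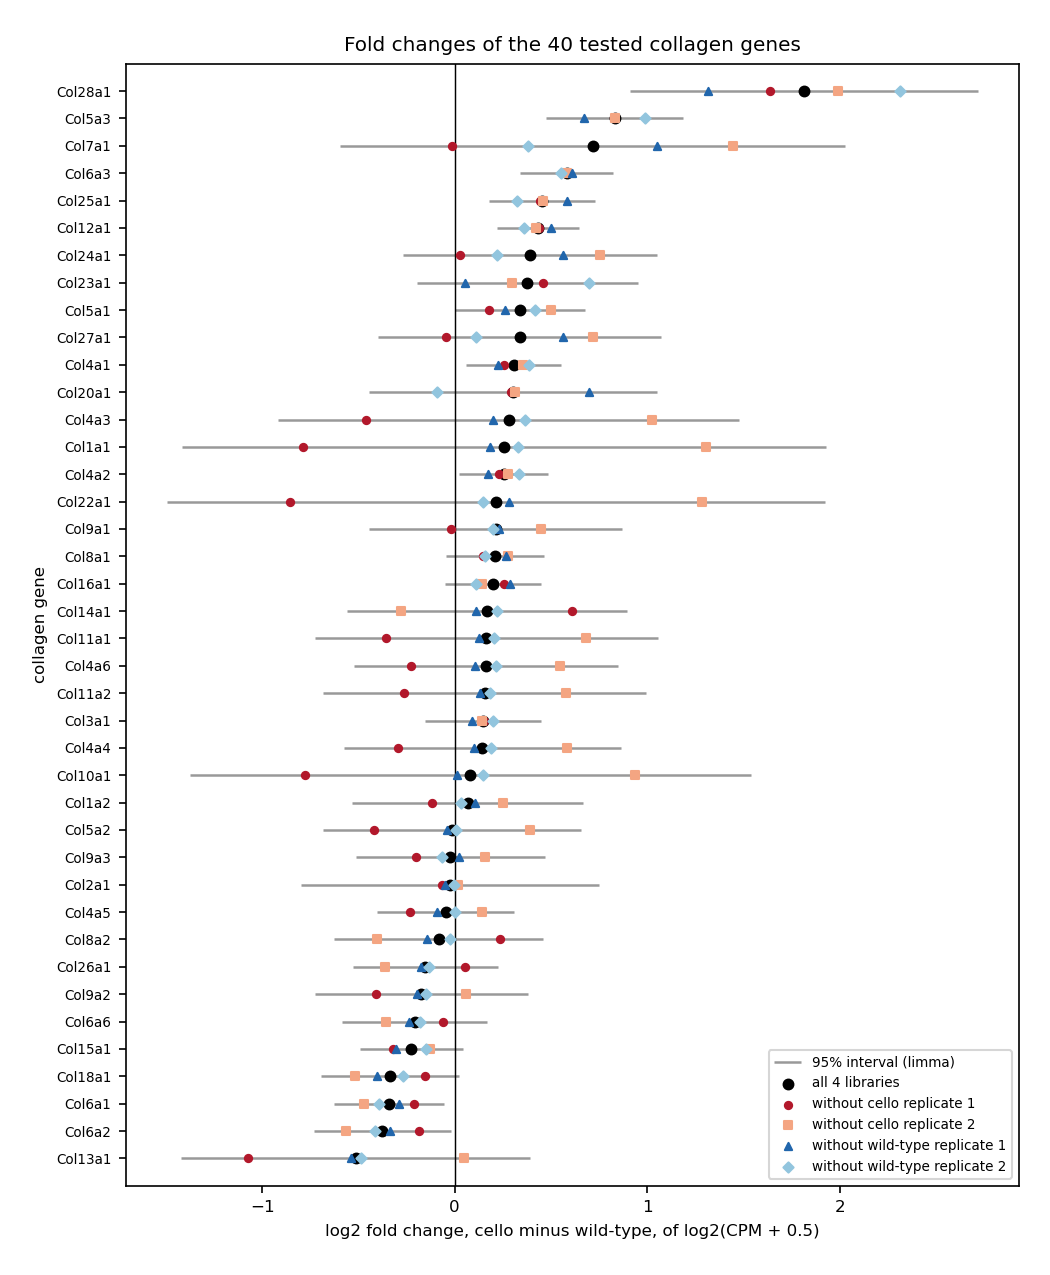
Log2 fold change, cello minus wild-type, on log2(CPM + 0.5) for each of the 40 tested collagen genes with its 95% interval from limma, and the values with each of the 4 libraries left out. The intervals of 10 genes exclude 0 before adjustment, 8 above and 2 below, and none passed after adjustment.

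In 11 of the 40 genes both cello libraries exceeded both wild-type libraries (27.5%), against 16.9% of all genes, and in 5 both lay below them (12.5%), against 28.7% of all genes. Without cello replicate 1 the numbers were 15 (background 34.3%) and 21 (43.0%), and without cello replicate 2 they were 29 (32.5%) and 8 (47.9%). Without wild-type replicate 1 they were 15 (28.6%) and 6 (39.3%), and without wild-type replicate 2 they were 12 (26.2%) and 6 (39.6%). With all libraries the 11 were Col28a1, Col5a3, Col6a3, Col25a1, Col12a1, Col5a1, Col4a1, Col4a2, Col8a1, Col16a1 and Col3a1. The 5 were Col6a1, Col6a2, Col18a1, Col15a1 and Col6a6. Col1a2, Col2a1 and the type IX and XI chains, which dominate the sum, were in neither group.

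**Figure D5:**
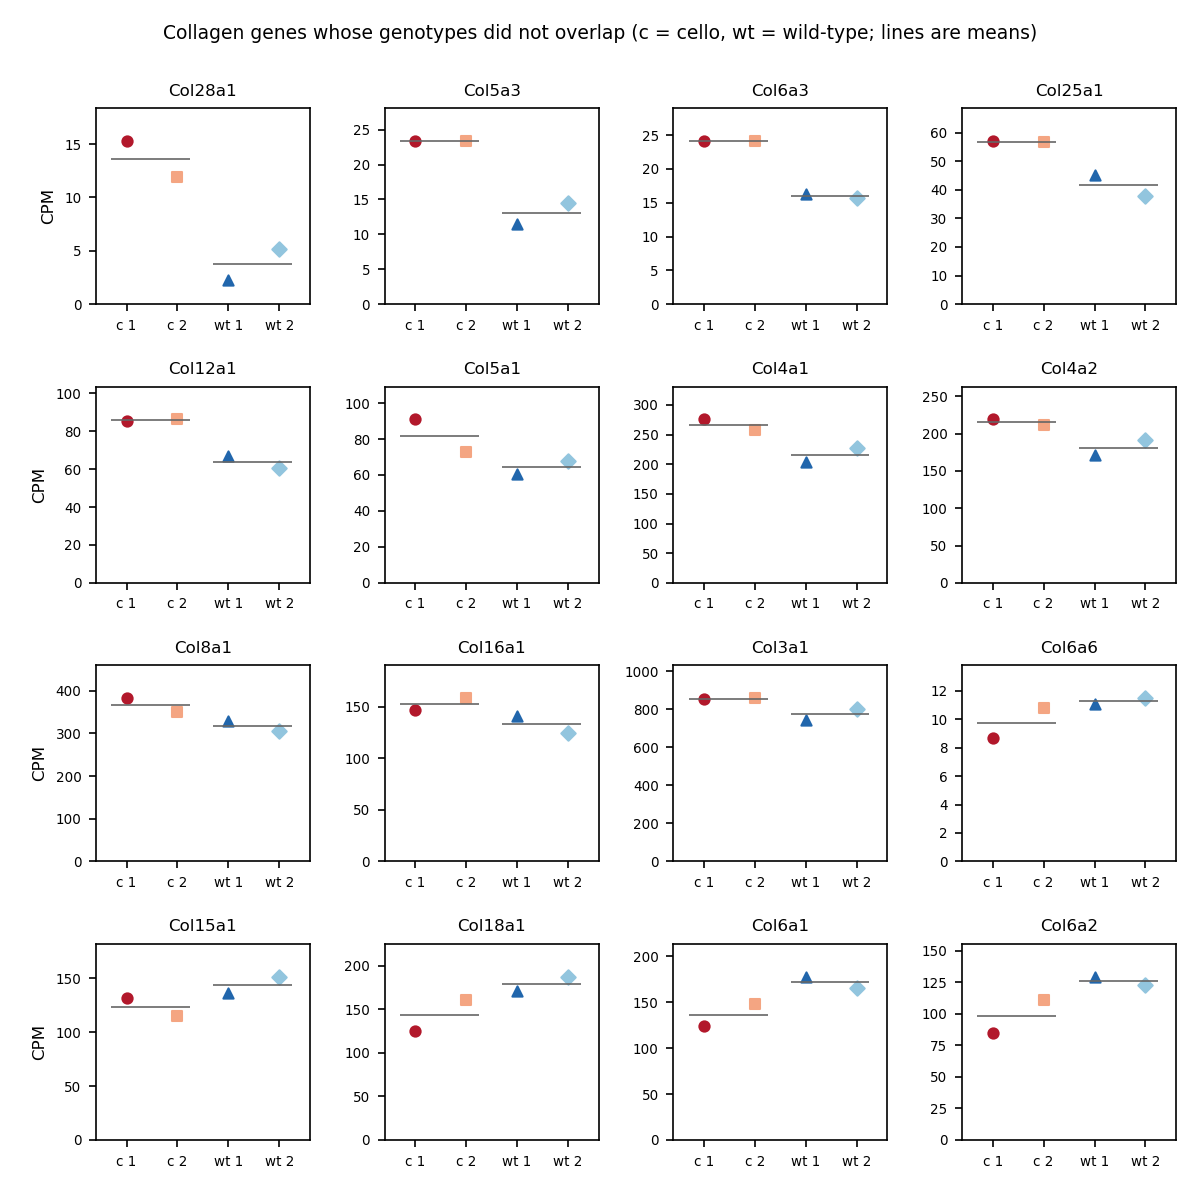
CPM of the collagen genes whose genotypes did not overlap, 1 panel per gene with its own axis from 0, in cello replicates 1 and 2 and in wild-type replicates 1 and 2, with lines at the genotype means. The 11 genes higher in cello come first and the 5 lower ones last, and Col28a1 shows the widest separation, with a ratio of means of 3.66.

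The largest difference was in Col28a1, the chain of type XXVIII collagen, known in mice mainly from the basement membranes around Schwann cells of peripheral nerve. It stood at 15.3 and 11.9 CPM in cello and at 2.31 and 5.12 CPM in wild-type. Both cello libraries were above both wild-type libraries, and wild-type replicate 1 was the lowest. It averaged 13.6 ± 2.42 CPM in cello and 3.72 ± 1.99 CPM in wild-type (SD, n = 2 each), a log2 fold change of 1.81 (SE 0.35, limma, adjusted p = 0.419). DESeq2 gave an adjusted p of 0.000964. Without wild-type replicate 1 the log2 fold change was 1.31, and without wild-type replicate 2 it was 2.31 with an adjusted p of 0.0365 in limma, where 0.611% of all genes passed.

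The Schwann cell markers moved with Col28a1. All 8 were higher in both cello libraries than in both wild-type libraries, against 16.9% of all genes. Their median log2 fold change was 1.18, against -0.032 for all genes, and it was 0.66 without wild-type replicate 1. Neuron markers, 8 genes, summed to 865 and 996 CPM in cello and to 213 and 628 CPM in wild-type. Their median log2 fold change was 1.44, with 7 above 0 and 1 below, and the median was 0.54 without wild-type replicate 1. Wild-type replicate 1 was the lowest library for Col28a1, for the Schwann sum and for the neuron sum. None of these markers was at 0 in any library, and their part in the difference of Col28a1 was not tested.

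Col5a3, the least abundant type V chain, is known from peripheral nerve, muscle and fat. It stood at 23.4 and 23.3 CPM in cello and at 11.5 and 14.5 CPM in wild-type. Its cello libraries agreed closely and lay above both wild-type libraries. It averaged 23.4 ± 0.0802 CPM in cello and 13.0 ± 2.11 CPM in wild-type (SD, n = 2 each), a log2 fold change of 0.83 (SE 0.14, limma, adjusted p = 0.419; DESeq2 adjusted p = 0.00127). Of the other type V chains, Col5a2 overlapped between genotypes and Col5a1 did not. Col5a1 stood at 91.0 and 72.6 CPM in cello and at 60.6 and 67.8 CPM in wild-type, a log2 fold change of 0.34 (SE 0.13).

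The type VI chains went in opposite directions. Col6a3, the long chain of type VI collagen, stood at 24.2 and 24.1 CPM in cello and at 16.3 and 15.7 CPM in wild-type. Col6a1 stood at 124 and 148 CPM in cello and at 178 and 165 CPM in wild-type. Col6a2 stood at 85.2 and 111 CPM in cello and at 129.7 and 123 CPM in wild-type. For none of the 3 did the genotypes overlap, with Col6a3 higher and Col6a1 and Col6a2 lower in cello.

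Their log2 fold changes were 0.58 for Col6a3 (SE 0.095, limma, adjusted p = 0.419), -0.34 for Col6a1 (SE 0.11, adjusted p = 0.441) and -0.38 for Col6a2 (SE 0.14, adjusted p = 0.452). DESeq2 gave adjusted p of 0.00492, 0.352 and 0.456 for the same genes. Per kilobase, the ratio of Col6a3 to Col6a1 was 0.072 and 0.060 in cello and 0.034 and 0.035 in wild-type. This ratio did not overlap between genotypes, and in each library Col6a3 was far below its partners. Col6a6, an alternative to Col6a3 in the trimer, stood at 8.72 and 10.8 CPM in cello and at 11.1 and 11.5 CPM in wild-type, a log2 fold change of -0.21 (SE 0.15).

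Summed over its 6 genes, type VI collagen reached 242 and 294 CPM in cello and 335 and 316 CPM in wild-type. Both cello libraries lay below both wild-type libraries, and the exact permutation p was 0.333, the smallest possible here. Of the other class sums that separated the genotypes, with the same p, the multiplexin sum was lower in cello and 2 were higher. The multiplexin sum reached 257 and 276 CPM in cello and 308 and 339.6 CPM in wild-type. Type VIII and X chains together reached 448 and 447 CPM in cello and 408 and 392 CPM in wild-type, and the class of other collagens 97.8 and 107 CPM in cello and 94.7 and 97.4 CPM in wild-type. Col15a1, the multiplexin of muscle and vessel basement membranes, stood at 132 and 115 CPM in cello and at 136 and 152 CPM in wild-type, a log2 fold change of -0.23 (SE 0.11). Col18a1 had a log2 fold change of -0.34 (SE 0.14, limma, adjusted p = 0.468). Both multiplexins were below 0 in limma whichever library was left out.

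Col12a1, a fibril-associated collagen of ligament and tendon, stood at 85.3 and 86.4 CPM in cello and at 66.8 and 60.4 CPM in wild-type. It averaged 85.8 ± 0.768 CPM in cello and 63.6 ± 4.49 CPM in wild-type (SD, n = 2 each), a log2 fold change of 0.43 (SE 0.084, limma, adjusted p = 0.419; DESeq2 adjusted p = 0.00845). Col25a1, a membrane collagen made by neurons and muscle, stood at 57.1 and 56.6 CPM in cello and at 45.3 and 37.8 CPM in wild-type, a log2 fold change of 0.45 (SE 0.11, limma, adjusted p = 0.419; DESeq2 adjusted p = 0.0553). For both genes the cello libraries lay together above the wild-type ones. Col16a1, another fibril-associated collagen, stood at 147 and 159 CPM in cello and at 142 and 125 CPM in wild-type, with genotypes that came close.

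The basement membrane pair Col4a1 and Col4a2, whose promoters are shown above, averaged 266 ± 13.3 and 215 ± 5.48 CPM in cello and 216 ± 16.8 and 181 ± 14.3 CPM in wild-type (SD, n = 2 each). The log2 fold change was 0.31 for Col4a1 (SE 0.10, limma, adjusted p = 0.437) and 0.25 for Col4a2 (SE 0.092, adjusted p = 0.444). The median log2 fold change of the 9 endothelial and pericyte markers was 0.082, and -0.13 without cello replicate 1. Rgs5, a pericyte gene, was the only 1 of the 9 whose genotypes did not overlap. It stood at 441 and 281 CPM in cello and 229 and 178 CPM in wild-type. Of all genes, 16.9% were higher and 28.7% lower in cello without overlap. The part of vessels or nerve in the type IV difference was not tested. The median log2 fold change over all 6 type IV chains was 0.21, and it was -0.23 without cello replicate 1 and 0.45 without cello replicate 2.

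The DESeq2 calls depended on single libraries. Without wild-type replicate 2 Col5a3 and Col28a1 were called higher, against 2.32% of all genes, and 0 collagens lower, against 0.034%. Without wild-type replicate 1 no collagen was called, against 0.0679% of genes higher and 0.0476% lower. None of the 4 genes was thus called once wild-type replicate 1 was left out, although the limma log2 fold changes were then still 0.61 for Col6a3, 0.67 for Col5a3, 0.50 for Col12a1 and 1.31 for Col28a1.

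Without cello replicate 1 DESeq2 called 1 collagen higher, Col14a1, against 0.662% of genes, and 6 lower, against 1.28%, and none of the first 4 was among them. Without cello replicate 2 it called 14 higher, Col5a3 and Col28a1 among them, against 1.76%, and 3 lower, Col18a1, Col6a1 and Col6a2, against 1.19%. These repeats, chosen after the data were seen, leave 1 library in a genotype, which is then assumed to vary like the others. Genes without an adjusted p in DESeq2 count as not called. Without cello replicate 1 these were 3996 of the 14721 genes tested.

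For several chains the precision was limited by the gap between the cello libraries. The 95% interval of the log2 fold change ran from -1.42 to 1.93 for Col1a1 and from -1.42 to 0.39 for Col13a1. Col13a1, a membrane collagen of nerve and muscle junctions, differed by -1.08 without cello replicate 1 and by 0.047 without cello replicate 2. These intervals include both no difference and differences of more than 2-fold.

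The 4 collagens below the filter were Col19a1, Col17a1, Col6a5 and Col6a4. Col19a1 stood at 1.13 and 0.506 CPM in cello and at 0.201 and 0.285 CPM in wild-type. Col19a1 was higher in both cello libraries, at a level of few reads. Col17a1, a collagen of skin cell attachment, stood at 0.212 and 0.506 CPM in cello and at 0.241 and 0.356 CPM in wild-type. Col6a5 stood at 0.448 and 0.337 CPM in cello and at 0.241 and 0.261 CPM in wild-type. Col6a4 had 4 and 0 reads in cello and 0 and 5 reads in wild-type. Col6a5 was thus higher in both cello libraries, but on few reads, 19 and 16 in cello and 12 and 11 in wild-type. Col17a1 and Col6a4 overlapped. A count of 0 allows up to 0.0632 CPM in cello replicate 2 and up to 0.0603 CPM in wild-type replicate 1, counting error alone considered.

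The machinery that makes, cuts and binds collagen was listed beside the chains, and 0 genes of these lists passed an adjusted p of 0.05 in limma, against 0.0% of all genes, or in DESeq2, against 0.847% higher and 0.589% lower. At an unadjusted p of 0.05 in limma P4hb passed as 1 of 21 genes of its list, Ddr1 as 1 of 9 and Prelp as 1 of 10, each lower in cello, against 6.47% of all genes. No gene of these lists passed as higher, against 4.42%. Of 21 enzymes and chaperones that modify and fold collagen chains, 9 had a log2 fold change above 0 and 12 below, with a median of -0.0057. P4hb, the shared subunit of the prolyl hydroxylases, stood at 400.4 and 429 CPM in cello and at 487 and 505 CPM in wild-type, a log2 fold change of -0.26 (SE 0.10, limma, adjusted p = 0.453). P3h4, part of a lysyl hydroxylase complex, stood at 79.9 and 80.7 CPM in cello and at 90.2 and 91.4 CPM in wild-type. Plod3, a lysyl hydroxylase, stood at 47.8 and 42.0 CPM in cello and at 49.8 and 53.0 CPM in wild-type. All 3 were lower in both cello libraries, as were 8 of the 21 in all, against 28.7% of all genes.

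Of 13 tested genes that cleave procollagen or crosslink fibrils, 8 were above 0 and 5 below, with a median of 0.015. Adamts3, the procollagen II protease, stood at 6.83 and 7.10 CPM in cello and at 8.47 and 8.61 CPM in wild-type. Pcolce2, an enhancer of procollagen cleavage, stood at 71.6 and 54.7 CPM in cello and at 76.9 and 75.3 CPM in wild-type. Loxl3, a lysyl oxidase, stood at 22.6 and 18.0 CPM in cello and at 16.6 and 17.3 CPM in wild-type. Their log2 fold changes were -0.28, -0.28 and 0.25, and none of the 13 had an unadjusted p under 0.05 in limma.

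Among 9 tested collagen receptors 5 were above 0 and 4 below, with a median of 0.10. Ddr1, a receptor tyrosine kinase of epithelia that binds collagen, stood at 126 and 119.8 CPM in cello and at 142 and 163 CPM in wild-type, a log2 fold change of -0.31 (SE 0.10, limma, adjusted p = 0.435). Its relative Ddr2, of connective tissue cells, stood at 255 and 225 CPM in cello and at 222 and 205 CPM in wild-type. Lair1, a leukocyte receptor, stood at 3.16 and 3.43 CPM in cello and at 2.15 and 2.47 CPM in wild-type. Ddr1 was lower and Ddr2 and Lair1 were higher in both cello libraries.

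Of 6 tested proteases that degrade collagen 4 were above 0 and 2 below, with a median of 0.50, which was -0.19 without cello replicate 1, 1.36 without cello replicate 2 and 0.029 without wild-type replicate 1. Mmp2 stood at 546 and 562 CPM in cello and at 620.3 and 623 CPM in wild-type. Ctsk, the collagenase of osteoclasts, stood at 191 and 85.9 CPM in cello and at 92.6 and 86.9 CPM in wild-type, and Mmp9, also of osteoclasts, at 118 and 31.9 CPM in cello and 36.6 and 38.9 CPM in wild-type. Ctsk and Mmp9 were high in cello replicate 1 alone, as the bone markers were. Both also stand in the osteoclast marker list.

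Of 10 small leucine-rich proteoglycans, which coat collagen fibrils, 5 were above 0 and 5 below, with a median of -0.0097. Prelp stood at 22.8 and 26.0 CPM in cello and at 28.6 and 31.4 CPM in wild-type, a log2 fold change of -0.29 (SE 0.11, limma, adjusted p = 0.452). Lum, which spaces fibrils, stood at 834 and 936 CPM in cello and at 1039.7 and 1060.5 CPM in wild-type. Omd, a proteoglycan of bone, stood at 31.5 and 27.4 CPM in cello and at 26.6 and 26.1 CPM in wild-type. Prelp and Lum were lower and Omd was higher in both cello libraries.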

How the data were processed

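RNA of dissected whole cochleae was sequenced from TruSeq libraries, per the labels. CPM of each gene were deposited by the authors in 1 table per library. Alignment was with TopHat on GRCm38, per the submitters' processing notes. Counter, strand setting and annotation are not stated in the labels, so reads of overlapping genes cannot be told apart. CPM were scaled by the authors to all counted alignments, 5 entries that name no gene included, as the sums of the deposited values show. Those entries were left out of tests. One of them, named ambiguous, held 3.40% to 3.53% of alignments, and which reads it took is not stated. Genes held 70.9% and 70.0% of alignments in cello and 71.0% and 72.8% in wild-type. All values were whole multiples of the smallest (100%, tolerance 0.001), which gave back the reads. Of 37239 identifiers 36588 matched GENCODE M21 (GRCm38), which gave symbols, positions and exon lengths.

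The 14721 genes that reached 1 CPM in 2 or more of the 4 libraries were fitted by genotype in limma 3.58.1 (R 4.3.3) on log2(CPM + 0.5) with a variance trend. Tests were two-sided, Benjamini-Hochberg adjusted over all these genes, with a threshold of 0.05. edgeR 4.0.16 (quasi-likelihood) and DESeq2 1.42.0 on the recovered reads were alternatives. edgeR called 0 genes (1463 at an unadjusted p of 0.05, against 1603 in limma) and DESeq2 195, with 1142 adjusted p undefined. Tables and plots used Python 3.11.15, pandas 2.3.3, scipy 1.17.1 and matplotlib 3.10.9. The tests were also run on simulated counts, as a check of the code. Those counts held no differences in bone or nerve content between libraries, so they do not bear on the numbers of calls here. A count of 0 allows up to 3 reads, counting error alone considered.

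The collagens, gene lists and tests were chosen with earlier results of these data known. Values in every library are given for the 12 highest collagens, the highest of each class, the 5 per direction with the smallest p, the 5 largest gaps within each genotype, all partner chains, up to 3 genes per pathway list with the smallest p, and Ikzf2. Col24a1 and the remaining collagens are in the plots. Genes called at an unadjusted p, genes whose genotypes did not overlap, the 4 untested genes and the marker genes Ibsp and Rgs5 were named after their values were seen.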

Additional observations from a re-analysis of the deposited data

How the results depend on the processing

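Counts of calls depended on the test and on single libraries. Genes called numbered 0 in limma and 195 in DESeq2, and collagen genes called 0 and 4. Leaving out 1 library, limma called 0 to 90 genes and 0 to 1 collagen (Col28a1, without wild-type replicate 2). DESeq2, in a repeat added after the data were seen, called 208 genes and 7 collagens without cello replicate 1, 400 and 17 without cello replicate 2, 17 and 0 without wild-type replicate 1, and 347 and 2 without wild-type replicate 2. Without a library, the median log2 fold change of the collagens ranged from -0.054 to 0.33 around 0.17, and the ratio of summed collagen CPM from 0.916 to 1.21 around 1.07. Pseudocounts (0.1 or 1), the filter (none, or 5 CPM on average), scaling by TMM, median-of-ratios, quantiles or other gene totals, limma without trend or robust, edgeR, and leaving out 10 chains known from bone (median 0.16) kept the direction of the median.

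With 1 library left out, the log2 fold changes of 22 collagens changed sign. Their ranges were Col10a1 -0.78 to 0.94, Col11a1 -0.35 to 0.68, Col11a2 -0.26 to 0.58, Col13a1 -1.08 to 0.047, Col14a1 -0.28 to 0.61, Col1a1 -0.79 to 1.30, Col1a2 -0.12 to 0.25 and Col20a1 -0.089 to 0.70. Further ranges were Col22a1 -0.85 to 1.28, Col26a1 -0.36 to 0.056, Col27a1 -0.046 to 0.72, Col2a1 -0.067 to 0.016, Col4a3 -0.46 to 1.02, Col4a4 -0.30 to 0.58, Col4a5 -0.23 to 0.14 and Col4a6 -0.23 to 0.55. The last ranges were Col5a2 -0.42 to 0.39, Col7a1 -0.013 to 1.45, Col8a2 -0.40 to 0.23, Col9a1 -0.020 to 0.45, Col9a2 -0.41 to 0.061 and Col9a3 -0.20 to 0.16. Under alternatives that keep all libraries, 4 genes with changes near 0 turned. Col2a1 (-0.026) came to 0.0032 over reads in genes, 0.0063 without haemoglobin and mitochondrial genes, 0.0075 over genes other than collagens, 0.015 with TMM, 0.014 with median-of-ratios, 0.016 in edgeR and 0.014 in DESeq2. Col9a3 (-0.022) came to 0.0068 over reads in genes, 0.0098 without haemoglobin and mitochondrial genes, 0.011 over genes other than collagens, 0.019 with TMM, 0.017 with median-of-ratios, 0.030 in edgeR and 0.029 in DESeq2. Col5a2 (-0.014) came to 0.014 over reads in genes, 0.017 without haemoglobin and mitochondrial genes, 0.019 over genes other than collagens, 0.026 with TMM, 0.025 with median-of-ratios, 0.032 with quantile normalization, 0.084 in edgeR and 0.084 in DESeq2. Col4a5 (-0.046) came to 0.0065 in edgeR and 0.0055 in DESeq2. The cause was not tested. Of the other values of single genes under such alternatives, 570 kept direction and side of the threshold and 4, the DESeq2 calls, passed it.

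With the replicate number as a block 0 genes and 0 collagens were called and the median was 0.17. Deviations of same-numbered libraries correlated at 0.13 over only 2 pairs, too few to tell whether they share more than a number. The labels state no such pairing, and the main fit had no replicate block. With 2 libraries per genotype, only differences far wider than the gaps between replicates could pass, and collagens near or below the filter rest on few reads.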

Other observations

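The cello libraries also differed from each other in some genes of the tectorial membrane, whose fibrils are largely type II, IX and XI collagen. Tectb, a non-collagenous tectorial membrane protein, stood at 748 and 2633 CPM in cello and at 2474 and 2594 CPM in wild-type. Tecta, its large partner, stood at 35.1 and 251 CPM in cello and at 115 and 127 CPM in wild-type. Both were lowest in cello replicate 1, the library in which Col11a1, Col11a2 and Col9a1 were highest. Ceacam16, a tectorial membrane protein that appears late, went the other way, at 15.3 and 3.27 CPM in cello and 6.40 and 5.93 CPM in wild-type. Of the 8 tectorial membrane and supporting cell markers, 4 were higher and 4 lower in cello replicate 1 than in cello replicate 2. Their median gap was -0.13 on the log2 scale, against -0.031 for all genes tested. Coch, the fibrocyte protein cochlin, stood at 1162 and 215 CPM in cello and at 327 and 334 CPM in wild-type. Mmp13, a collagenase of bone and hypertrophic cartilage, stood at 36.7 and 5.42 CPM in cello and at 5.71 and 13.4 CPM in wild-type. Skeletal muscle markers summed to 1.65 and 2.21 CPM in cello and to 3.80 and 20.9 CPM in wild-type, with wild-type replicate 2 the highest and 1 gene, Ckm, at 0 in a library. Erythroid markers summed to 983 and 1194 CPM in cello and to 624 and 1384 CPM in wild-type, and stria vascularis markers to 1576 and 1429 CPM in cello and to 1741 and 2063 CPM in wild-type. Tectorial membrane and supporting cell markers summed to 1324 and 3418 CPM in cello and to 3311 and 3484 CPM in wild-type, and hair cell markers to 391 and 349 CPM in cello and to 493 and 494 CPM in wild-type. These genes were named after their values were seen.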
